A study of Mus musculus with 9 samples.

Results

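Ahnak, 5 annexins and 4 S100 genes were described in RNA pulled down with tagged astrocyte ribosomes, in libraries of perivascular endfeet and of whole astrocytes. The 10 genes (Ahnak, Anxa1, Anxa2, Anxa3, Anxa5, Anxa6, S100a6, S100a10, S100a11 and S100b) were found among 22092 genes with counts, and all 10 passed the filter on low counts. They were picked by name, with their levels in endfeet and whole astrocytes already known. Differences between these groups are therefore given for them as a description, without a test. All libraries came from transgenic mice of 2 months (genotype tg:Aldh1L1-L10aGFP, line Aldh1L1 JD130), in which the astrocyte promoter Aldh1l1 drives the ribosomal protein L10a fused to GFP. Tagged ribosomes were pulled down by translating ribosome affinity purification (TRAP), and the polysomal RNA was amplified and sequenced. The 3 whole astrocyte TRAP libraries were made from brain, 1 mouse each, with the choroid plexus removed. The 6 endfeet TRAP libraries were made from purified brain vessels, to which the endfeet stay attached, with the vessels of 8 mice pooled for each. Both groups carried the transgene, and no library of untagged mice or of unbound RNA was analysed here.

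Annexins are cytosolic proteins that bind acidic phospholipids of membranes when calcium rises. They organise membrane domains, take part in exocytosis and endocytosis, and help to reseal a torn plasma membrane. S100 proteins are small dimers of EF-hand subunits, and several of them dock on the flexible N-terminal tail of an annexin: S100a10 on annexin A2, and S100a11 on annexin A1. The annexin A2 and S100a10 complex holds the giant scaffold protein AHNAK at the plasma membrane, where AHNAK also meets actin and the L-type calcium channel. S100b is the S100 protein by which astrocytes are most often recognised.

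The sequences below show what the 4 S100 members share and where S100a10 departs from the others. Each is the coding sequence of the counted transcript in the GENCODE M21 annotation (build GRCm38, the same as mm10), written 5′ to 3′, and the capitals mark the 12 codons of the calcium-binding loop of the second EF-hand, found by a script. The loop has 4 positions that were checked for a residue able to hold calcium through its side chain.
S100b: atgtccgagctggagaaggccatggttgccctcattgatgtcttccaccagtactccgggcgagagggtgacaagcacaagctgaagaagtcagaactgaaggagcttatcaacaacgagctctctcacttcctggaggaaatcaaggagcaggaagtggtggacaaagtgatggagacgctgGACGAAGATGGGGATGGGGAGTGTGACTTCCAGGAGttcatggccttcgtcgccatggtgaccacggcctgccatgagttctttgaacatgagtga
S100a6: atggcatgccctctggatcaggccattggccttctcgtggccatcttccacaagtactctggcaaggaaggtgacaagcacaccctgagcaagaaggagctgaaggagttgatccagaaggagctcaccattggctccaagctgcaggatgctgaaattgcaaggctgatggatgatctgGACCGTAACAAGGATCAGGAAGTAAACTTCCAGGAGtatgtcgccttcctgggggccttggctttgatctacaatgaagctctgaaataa
S100a11: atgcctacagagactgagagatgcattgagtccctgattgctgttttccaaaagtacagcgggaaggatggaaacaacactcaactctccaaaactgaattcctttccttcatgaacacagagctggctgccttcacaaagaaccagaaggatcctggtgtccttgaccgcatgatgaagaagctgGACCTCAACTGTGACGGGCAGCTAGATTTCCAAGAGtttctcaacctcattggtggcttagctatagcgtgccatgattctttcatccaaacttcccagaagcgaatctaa
S100a10: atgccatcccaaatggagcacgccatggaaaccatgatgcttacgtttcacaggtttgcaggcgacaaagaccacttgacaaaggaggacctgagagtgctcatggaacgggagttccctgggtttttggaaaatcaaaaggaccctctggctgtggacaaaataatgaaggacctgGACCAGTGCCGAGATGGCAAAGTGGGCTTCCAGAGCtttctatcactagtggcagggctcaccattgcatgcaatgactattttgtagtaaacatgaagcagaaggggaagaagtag
All 4 positions matched in S100b, S100a6 and S100a11, and 2 of 4 matched in S100a10, which is known to stay in its open, annexin-binding shape without calcium. The 4 proteins have 89 to 98 residues and shared 25.6% (S100a6 and S100a10) to 39.8% (S100a6 and S100b) of aligned residues.

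The tail of annexin A2 that S100a10 clasps is encoded by the first codons of Anxa2, shown here because the levels of both partners are compared further on. The first 15 codons, all in capitals, read as follows.
Anxa2 start: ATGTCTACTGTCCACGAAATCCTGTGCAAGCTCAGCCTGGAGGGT
The 5 annexin members shared 41.0% (Anxa1 and Anxa5) to 58.0% (Anxa5 and Anxa6) of aligned residues. Anxa6 encodes 667 residues against 319 to 346 in the 4 others, as it carries 2 annexin cores in tandem.

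Whole astrocyte TRAP libraries held 35984144 to 43521208 counts over all genes and endfeet TRAP libraries 2319495 to 13450588. Levels are given in CPM, counts per 1000000 counts of the library, and 3 counts amounted to 0.223 to 1.29 CPM in endfeet. Over the 14427 genes tested, the median coefficient of variation between libraries was 9.88% in whole astrocytes and 62.6% in endfeet. Markers of vascular cells differed between the groups with the members. All 10 endothelial markers and all 10 mural cell markers were higher in endfeet (edgeR quasi-likelihood test, Benjamini-Hochberg adjusted p of at most 0.05). Their summed level was 7.20 to 9.13 CPM in whole astrocytes and 2669 to 5653 CPM in endfeet for endothelial cells, and 37.5 to 39.8 and 2931 to 7954 CPM for mural cells. The endothelial marker Ly6c1 was at 0 in all 3 whole astrocyte libraries. Of 8 fibroblast markers, 7 were higher (29.9 to 44.5 against 736 to 1442 CPM in sum), as were 7 of 10 microglia and macrophage markers (20.9 to 25.8 against 190 to 415 CPM). Astrocyte markers summed to 12431 to 14602 CPM in whole astrocytes and 10454 to 29043 CPM in endfeet, with 1 of 8 higher and 3 of 8 lower. Of 8 neuronal markers, 3 were lower in endfeet (3613 to 4114 CPM in sum in whole astrocytes against 982 to 1872 CPM in endfeet). Of 8 oligodendrocyte markers, 2 were lower (850 to 873 against 255 to 541 CPM). The part of the vascular cells, immune cells, neurons and oligodendrocytes in the members' levels was not tested. RNA on tagged astrocyte ribosomes and RNA carried over from other cells cannot be told apart in these libraries. In RNA pulled down from many cells, fewer cells of a type and less RNA per cell cannot be told apart either.

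Of the 10 members, 3 were higher in every endfeet library than in every whole astrocyte library (Ahnak, Anxa2 and Anxa3), beside 17.7% of all genes tested. Another 5 were lower in every endfeet library (Anxa5, Anxa6, S100a6, S100a10 and S100b), beside 25.7% of all genes. Anxa1 and S100a11 had higher means in endfeet, and their groups overlapped. The median log2 difference, endfeet minus whole astrocytes, was 0.34 over the members and 0.10 over all genes tested.

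**Figure D1:**
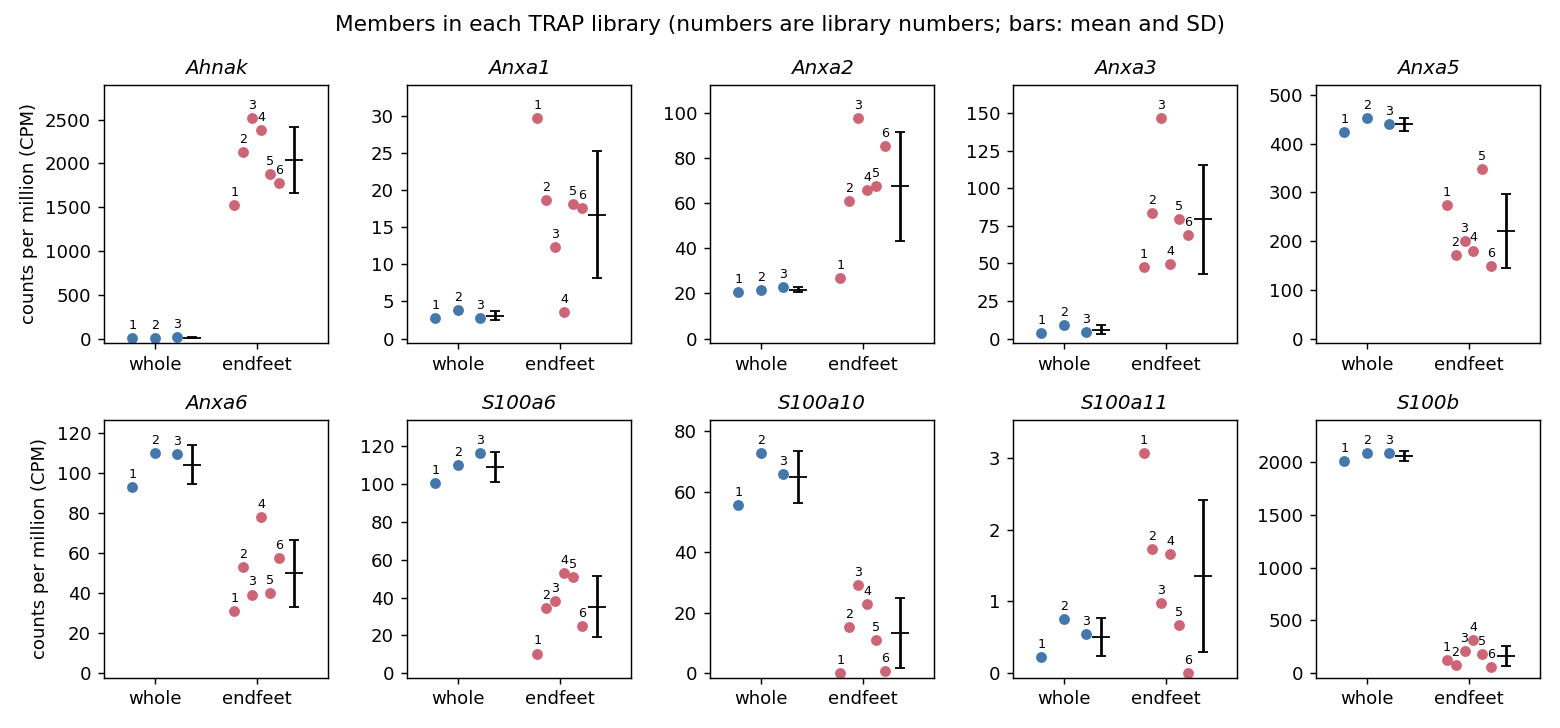
CPM of each member in the 3 whole astrocyte TRAP (blue) and 6 endfeet TRAP (red) libraries, each panel with its own linear axis from 0. Points are libraries, with their number, and black bars give the mean and the SD. Ahnak lies between 9.98 and 11.8 CPM in whole astrocytes and between 1529.9 and 2519 CPM in endfeet, while S100b lies between 2005 and 2086 CPM and between 62.5 and 317 CPM.

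Ahnak (ENSMUSG00000069833, chromosome 19, 8989284 to 9076914, plus strand, GRCm38) encodes a scaffold of 5656 residues. It was read at 9.98, 10.2 and 11.8 CPM in the whole astrocyte libraries. In endfeet the lowest library had 1529.9 CPM, the median was 2001 and the highest was 2519. The groups were far apart, with a mean 191-fold higher in endfeet (2035 ± 376 CPM, SD, n = 6, against 10.7 ± 0.979, n = 3). The log2 difference of 7.65 stood at position 162 from the top of 14427 genes. Ahnak had the smallest coefficient of variation of the 10 members in endfeet, 18.5%, and the lowest and highest libraries differed 1.65-fold. Library 1 was lowest and library 3 highest for Ahnak, and the summed endothelial markers were also lowest in library 1 (2669 CPM) and highest in library 3 (5653 CPM). Mural cell, microglia and macrophage, and neuronal markers were lowest in library 1 too (2931, 190 and 982 CPM in sum). They were highest in libraries 4, 2 and 6 (7954, 415 and 1872 CPM). Fibroblast markers were lowest in library 6 (736 CPM), oligodendrocyte markers in library 2 (255 CPM) and astrocyte markers in library 3 (10454 CPM). Whether RNA of any of these cell types takes part in the Ahnak level was not tested.

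The counted transcript, Ahnak-202, has 18100 bases in 5 exons, and 1 exon of 17498 bases (chromosome 19, 9001699 to 9019196) makes up 96.7% of it. The repeats of this exon bear on the counting: 34.3% of the 50-base windows of the transcript occur again in it with at most 2 mismatches, and the authors removed reads that aligned more than once. A second transcript, Ahnak-201, has 830 bases, of which 591 lie in exons of Ahnak-202. Counts of transcripts of the same gene share reads, so that reads of Ahnak-202 can be among the counts of Ahnak-201. The values of both are therefore a description, and a change in the use of the transcripts was not tested. In whole astrocytes Ahnak-201 had 13, 38 and 59 counts, or 15.7, 45.8 and 71.1 counts per 1000 bases, beside 19.8, 20.4 and 28.3 for Ahnak-202. In endfeet it had 27 to 133 counts, or 32.5 to 160 per 1000 bases, beside 228 to 1851 for Ahnak-202. Counts per base were thus higher for the short transcript in 2 of 3 whole astrocyte libraries and higher for the long transcript in all 6 endfeet libraries. In CPM, Ahnak-201 averaged 0.924 ± 0.510 (SD, n = 3) in whole astrocytes and 8.61 ± 3.30 (n = 6) in endfeet, a 9.32-fold difference beside 191-fold for Ahnak-202.

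**Figure D2:**
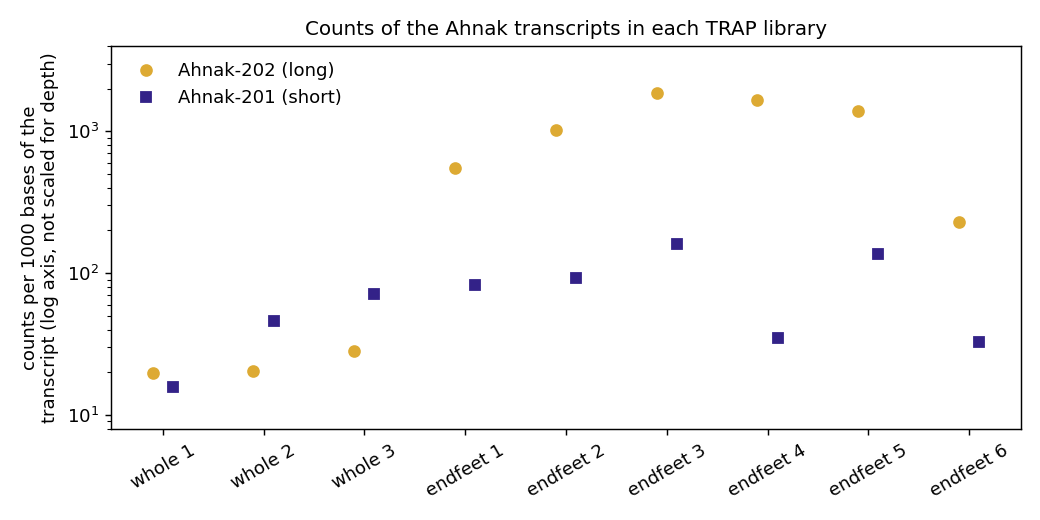
Counts per 1000 bases of the long (Ahnak-202, circles) and short (Ahnak-201, squares) Ahnak transcripts in each library, on a log axis and not scaled for depth. The long transcript spans 228 to 1851 in endfeet against 19.8 to 28.3 in whole astrocytes, while the short one spans 32.5 to 160 against 15.7 to 71.1. Reads in bases that both transcripts share can count for both.

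Anxa2 (ENSMUSG00000032231, chromosome 9, 69453620 to 69491795, plus strand) encodes the annexin that S100a10 binds. It was read at 20.6, 21.7 and 22.9 CPM in whole astrocytes. The endfeet libraries ranged from 27.0 CPM (library 1) over a median of 66.9 to 97.9 CPM. All 6 were above the whole astrocyte libraries, library 1 by little, and the mean was 3.11-fold higher in endfeet (67.5 ± 24.2 CPM against 21.7 ± 1.12).

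S100a10 (ENSMUSG00000041959, chromosome 3, 93555080 to 93564643, plus strand), also called p11, is the partner of annexin A2. It was read at 55.7, 72.9 and 66.0 CPM in whole astrocytes. In endfeet it ranged from 0.154 CPM over a median of 13.1 to 29.0 CPM, with a mean 4.91-fold higher in whole astrocytes (64.8 ± 8.67 against 13.2 ± 11.6 CPM). Endfeet libraries 1 and 6 stood apart with 1 and 2 counts, where the whole astrocyte mean would give 422 and 150 counts. The other 4 endfeet libraries had 131 to 386 counts and were also below every whole astrocyte library.

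The ratio of both partners within a library, per transcript length in TPM, the counts per base scaled to 1000000 in each library, turned over between the groups. S100a10 had 5.70, 7.09 and 6.10 times the TPM of Anxa2 in the whole astrocyte libraries. In endfeet the ratio of S100a10 to Anxa2 was 0.0120 at the lowest, 0.434 at the median and 0.735 at the highest, below 1 in all 6 libraries. Ahnak had 0.0377 to 0.0412 times the TPM of Anxa2 in whole astrocytes and 1.67 to 4.53 times in endfeet. By TPM the 3 genes of the membrane complex thus stood in the order S100a10, Anxa2, Ahnak in every whole astrocyte library. In every endfeet library the order was reversed. Their transcripts have 685, 1447 and 18100 bases, and TPM does not remove the change of the group difference with transcript length described below. With the length offset given there, their log2 differences were -1.03, 2.80 and 5.43. Whether the order turns over apart from length was not tested.

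Anxa3 (ENSMUSG00000029484, chromosome 5, 96793339 to 96845966, plus strand), an annexin known from microglia and from the growth of vessels, was read at 3.84, 9.21 and 4.62 CPM in whole astrocytes. In endfeet the lowest library had 47.3 CPM, the median was 74.1 and the highest, library 3, had 147. The groups did not overlap and the mean was 13.5-fold higher in endfeet. The log2 difference of 3.80 was the second among the members after Ahnak.

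Anxa1 (ENSMUSG00000024659, chromosome 19, 20373428 to 20390944, minus strand) encodes the glucocorticoid-induced annexin whose secreted form acts on formyl peptide receptors. Its whole astrocyte levels were 2.78, 3.83 and 2.71 CPM. In endfeet the lowest library, number 4, had 3.55 CPM, the median was 17.9 and the highest, library 1, had 29.8. Library 4 lay within the whole astrocyte range and the 5 others were above it, so that the groups overlapped while the mean was 5.38-fold higher in endfeet.

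Anxa5 (ENSMUSG00000027712, chromosome 3, 36448923 to 36475894, minus strand), which binds phosphatidylserine, had the highest mean TPM of the annexins in both groups. It was read at 424, 453 and 441 CPM in whole astrocytes. In endfeet it ranged from 149.6 CPM over a median of 190.2 to 348 CPM, all below whole astrocytes, and the whole astrocyte mean was 1.99-fold higher (440 ± 14.3 against 220.4 ± 75.4 CPM).

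Anxa6 (ENSMUSG00000018340, chromosome 11, 54979108 to 55033445, minus strand), a membrane and cholesterol-binding annexin, was read at 93.2, 110.3 and 109.7 CPM in whole astrocytes. The endfeet libraries ranged from 31.3 CPM over a median of 46.8 to 77.9 CPM, again without overlap, with a mean 2.09-fold higher in whole astrocytes.

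S100b (ENSMUSG00000033208, chromosome 10, 76253853 to 76261159, plus strand) had the steadiest level of the members in whole astrocytes, with 2005, 2086 and 2086 CPM and a coefficient of variation of 2.27%. In endfeet the lowest library, number 6, had 62.5 CPM, the median was 155.5 and the highest, library 4, had 317. The whole astrocyte mean was 12.7-fold higher (2059 ± 46.6 against 163 ± 94.4 CPM), and the log2 difference of -3.59 was at position 208 from the lowest of 14427 genes.

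S100a6 (ENSMUSG00000001025, chromosome 3, 90612882 to 90624181, plus strand), calcyclin, was read at 100.5, 110.2 and 117 CPM in whole astrocytes (109 ± 8.08). The endfeet libraries ranged from 10.4 CPM in library 1 over a median of 36.3 to 52.9 CPM in library 4. No endfeet library reached a whole astrocyte library, and the whole astrocyte mean was 3.09-fold higher.

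S100a11 (ENSMUSG00000027907, chromosome 3, 93520488 to 93526287, plus strand), the partner of annexin A1, had few counts in either group: 8, 27 and 24 in whole astrocytes, and 20, 15, 13, 21, 9 and 0 in endfeet libraries 1 to 6. In CPM these were 0.222 to 0.749 and 0 to 3.07, and the groups overlapped. The 0 of library 6 allows up to 1.29 CPM by counting error alone. Of its 50-base windows, 53.9% matched transcripts of other annotated genes with at most 2 mismatches, processed pseudogenes such as S100a11-ps and Gm7665 among them, and reads that aligned more than once were removed. Its level is therefore uncertain in both groups. None of the windows of the 9 other members matched another gene.

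Levels per transcript length put the members in different orders. In whole astrocytes S100b stood first with 3764 ± 19.8 TPM (SD, n = 3), followed by Anxa5 (689 ± 12.4), S100a6 (405 ± 23.8), S100a10 (256 ± 30.5), Anxa6 (115 ± 8.73), Anxa2 (40.7 ± 1.53), Anxa3 (9.98 ± 4.82), Anxa1 (5.03 ± 0.972), S100a11 (2.68 ± 1.38) and Ahnak (1.6 ± 0.131). Neighbours in this order did not overlap, except S100a11 and Ahnak. In endfeet the order was Anxa5 (408 ± 135, n = 6), Ahnak (364 ± 74.8), S100b (355 ± 219), Anxa3 (160 ± 68.2), S100a6 (158 ± 75.6), Anxa2 (152 ± 54.8), Anxa6 (66.4 ± 25.8), S100a10 (62.7 ± 54.1), Anxa1 (31.7 ± 15) and S100a11 (8.32 ± 6.16), and the ranges of all neighbours overlapped. Ahnak was above Anxa5 in 4 of 6 endfeet libraries and above S100b in 3 of 6, so that the first 3 were not separated by their spread. The TPM of Ahnak, here and in the ratios above, divides by its full length. As reads of its repeats that aligned more than once were removed, this TPM can be too low in both groups. Among all 22092 genes, Ahnak stood at position 285 by mean TPM in endfeet and at 12499 in whole astrocytes, and S100b at 306 and 16.

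**Figure D3:**
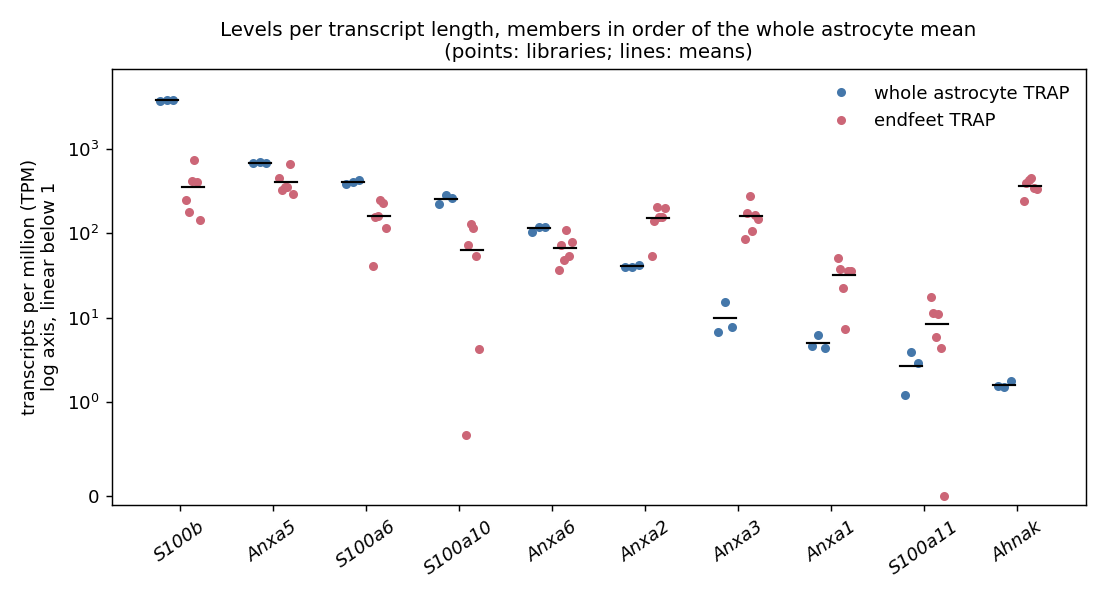
TPM of each member by library (points) with group means (lines), on a log axis that is linear below 1, ordered by the whole astrocyte mean. Whole astrocyte levels (blue) run from 3764 TPM for S100b down to 1.6 for Ahnak, while endfeet levels (red) of Anxa5, Ahnak and S100b all average 355 to 408 TPM.

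Summed over all 16 S100 genes looked at, the S100 transcripts amounted to 8349 to 8914 TPM in whole astrocytes and 743 to 1665 TPM in endfeet. S100b made up 42.4% to 44.8% of that sum in whole astrocytes and 14% to 44.1% in endfeet. The 12 annexins summed to 947 to 1006 TPM and 832 to 1339 TPM, ranges that overlapped. Within the annexins, Anxa5 made up 69.8% to 71.7% in whole astrocytes and 32.9% to 54.9% in endfeet.

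Over all genes tested, the difference between the groups moved with transcript length. The median log2 difference was -1.0 over the 498 genes tested with transcripts of up to 800 bases, -0.99 from 801 to 1500 bases, -0.35 from 1501 to 2500, 0.12 from 2501 to 5000, 0.81 from 5001 to 10000 and 1.82 over the 327 genes above 10000 bases. The order of the shortest and the longest class held in every endfeet library, whose medians ran from -1.14 to -0.60 and from 1.18 to 1.71. The 4 S100 members have transcripts of 511 to 1484 bases, the annexins 1447 to 2471, and Ahnak 18100. Beside its length class, which holds all transcripts above 10000 bases, Ahnak was 5.83 above the median on the log2 scale, at position 7 of 327. Anxa3 was 4.15, Anxa1 2.92 and Anxa2 2.68 above the medians of their classes, and S100b was 2.60 below. S100a6 (0.57 below), Anxa6 (0.62 below) and Anxa5 (0.54 below) lay nearer to genes of like length.

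With an offset for transcript length in edgeR, chosen after the data were seen, the log2 differences were 5.43 for Ahnak, 4.75 for Anxa3, 3.57 for Anxa1, 3.10 for S100a11, 2.80 for Anxa2, -2.55 for S100b, -1.03 for S100a10, -0.41 for Anxa6, -0.21 for S100a6 and 0.0016 for Anxa5. The sign of Anxa5 turned, and those of the 9 others held. The part of transcript length in these differences was not tested beyond this offset.

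**Figure D4:**
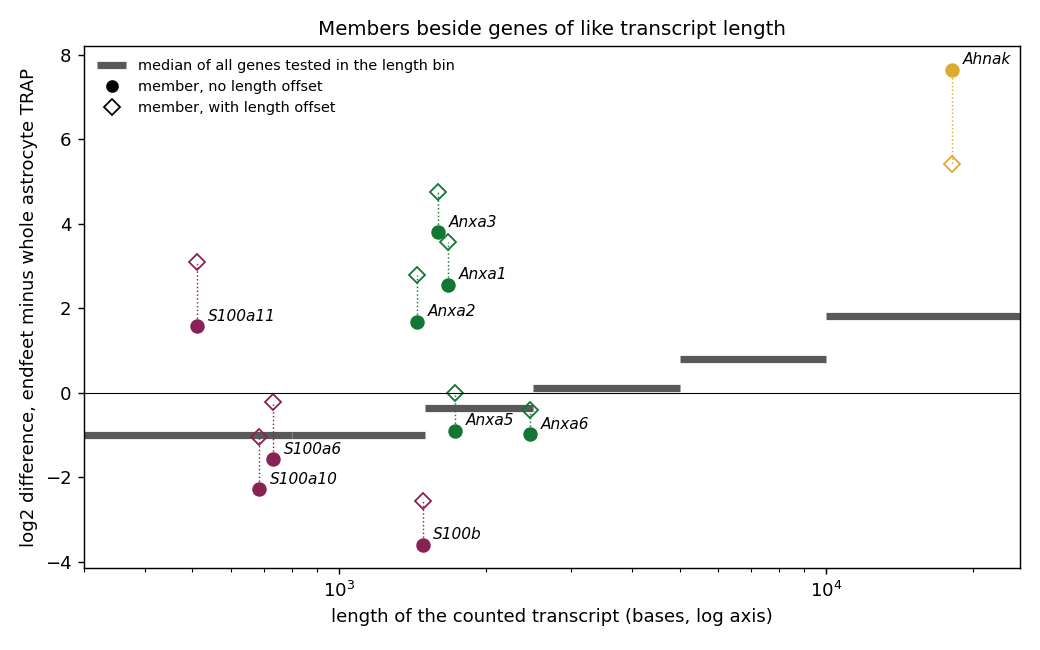
Log2 difference, endfeet minus whole astrocyte TRAP, against the length of the counted transcript (log axis) for the members, without (filled) and with (open) the length offset, beside the median of all genes tested in each length class (grey lines). Class medians climb from -1.0 to 1.82. Ahnak at 7.65, Anxa1, Anxa2, Anxa3 and S100a11 stand above the median of their class, and S100b at -3.59 and S100a10 at -2.28 stand below it.

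Genes of the same families and known partners that are not members were tested with edgeR, adjusted over all 14427 genes, of which 20.7% were called higher and 13.9% lower in endfeet. Of 45 such genes, 33 could be tested, and 6 were higher (18.2%), 6 lower (18.2%) and 21 not past the threshold. The median log2 fold change of these 33 genes was 0.74.

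None of the 5 other annexins tested passed the threshold with edgeR, and none had an unadjusted p under 0.05, while DESeq2 and limma each called 1 of them higher. Anxa9, the gene they called, had a log2 fold change of 2.28 (SE 1.08, edgeR adjusted p = 0.12), with 1.83 ± 0.313 CPM in whole astrocytes and 8.66 ± 6.61 in endfeet, where library 1 held 1 count. Anxa7, which acts in membrane fusion, had 64.2 ± 6.74 and 86.2 ± 26.7 CPM (log2 fold change 0.54, SE 0.37, adjusted p = 0.27). Anxa4 had 32.5 ± 6.14 and 29.7 ± 20.1 CPM (-0.10, SE 0.69, adjusted p = 0.93), Anxa11 1.55 ± 0.250 and 1.32 ± 0.970 CPM (-0.19, SE 1.01, adjusted p = 0.90), and Anxa8 1.57 ± 0.690 and 4.07 ± 5.78 CPM (1.58, SE 1.57, adjusted p = 0.46). Of the windows of Anxa11, 10.8% matched transcripts of other genes. Anxa10 and Anxa13 did not pass the filter.

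Of the 6 other S100 genes tested, 3 were lower in endfeet, 2 higher and 1 not past the threshold. S100a1, a calcium sensor known best from heart muscle, was read at 562 to 666 CPM in whole astrocytes and 13.3 to 116 CPM in endfeet (log2 fold change -3.37, SE 0.51, adjusted p = 0.00023). S100a13, a copper-binding member involved in the release of growth factors without a signal peptide, was read at 155 to 170.3 and at 8.29 to 35.9 CPM (-3.15, SE 0.43, adjusted p = 0.00012). S100a16 was read at 387 to 444 and at 10.90 to 100.9 CPM (-2.96, SE 0.51, adjusted p = 0.00065). The endfeet and whole astrocyte libraries did not overlap for these 3 genes, which lie next to each other or nearly so on chromosome 3 between 90511034 and 90543148. Without the length offset, the median was -1.0 in the class of S100a1 (-3.37) and S100a13 (-3.15), and -0.99 in that of S100a16 (-2.96). With the offset, which already takes the change with length out, they kept their calls at -1.83, -1.83 and -1.66 (adjusted p = 0.033, 0.0035 and 0.034).

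S100a8 and S100a9, whose products pair as calprotectin in neutrophils, were higher in endfeet by edgeR, and both calls rested on few counts. S100a9 had 1, 2 and 2 counts in whole astrocytes and 140, 94, 121, 69, 0 and 0 in endfeet libraries 1 to 6 (adjusted p = 0.014). S100a8 had 3, 1 and 0 counts and 51, 1, 60, 15, 0 and 0 (adjusted p = 0.049). Endfeet libraries 5 and 6 held 0 counts of both. Leaving out whole astrocyte library 1, 2 or 3 ended each call (adjusted p = 0.067, 0.061 and 0.064 for S100a9 and 0.11, 0.17 and 0.18 for S100a8). With the series of file numbers, described below, as a covariate, S100a8 lost its call (3.50, adjusted p = 0.18) and S100a9 kept it (5.37, adjusted p = 0.037). The call of S100a8 also ended without the filter, with summed transcripts and with a replicate block (adjusted p = 0.067, 0.065 and 0.056). DESeq2 and limma called both genes higher. S100a4, a marker of fibroblasts and of some astrocytes of white matter, had 25.9 ± 0.466 CPM in whole astrocytes and 9.90 ± 9.76 in endfeet (-1.31, SE 0.99, adjusted p = 0.33 with edgeR). Limma called S100a4 lower (-2.43, adjusted p = 0.014) and DESeq2 did not (adjusted p = 0.30), and 56.3% of its windows are shared with an overlapping annotated transcript. S100a3 had 38, 35 and 31 counts in whole astrocytes and 0 in all endfeet libraries, and like S100a5, S100a7a, S100a14, S100g and S100z it did not pass the filter.

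**Figure D5:**
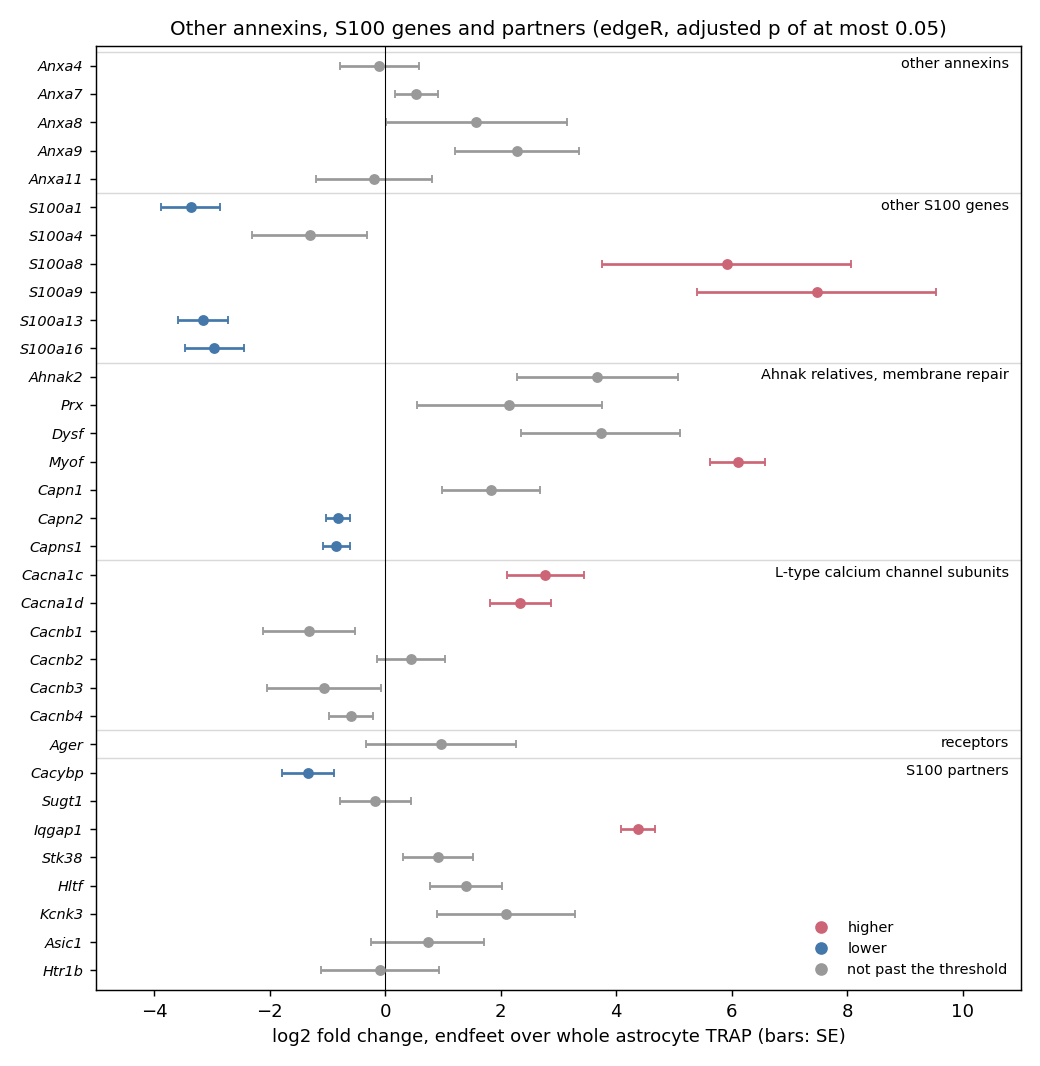
Log2 fold change, endfeet over whole astrocyte TRAP, of the 33 tested genes that are not members, with SE (bars) and coloured by the edgeR call (red higher, blue lower, grey not past the threshold). S100a1, S100a13 and S100a16 stand between -3.37 and -2.96, Iqgap1 at 4.37 and Myof at 6.10, and none of the 5 annexins is coloured.

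Among relatives of Ahnak and genes of plasma membrane repair, 1 of 7 tested was higher and 2 lower. Myof encodes myoferlin, a ferlin of membrane fusion and repair, and was read at 1.0 to 1.33 CPM in whole astrocytes and 58.0 to 86.5 CPM in endfeet (log2 fold change 6.10, SE 0.48, adjusted p = 1.19e-06). Its groups were far apart in all 9 libraries. Dysf, for dysferlin, and Ahnak2, the closest relative of Ahnak, came next to the threshold and are named after their values were seen. Dysf had 0.545 ± 0.114 and 7.28 ± 8.33 CPM (3.73, SE 1.37, adjusted p = 0.0501), with 0 counts in endfeet library 6. Ahnak2 had 0.309 ± 0.213 and 3.85 ± 4.41 CPM (3.68, SE 1.39, adjusted p = 0.056). DESeq2 and limma called both of them higher. With the length offset in edgeR neither passed the threshold (3.05, adjusted p = 0.10 for Dysf, and 3.26, adjusted p = 0.091 for Ahnak2).

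Of the 3 calpain subunits, 2 were lower in endfeet and 1 was not past the threshold. Capn2, the catalytic subunit of calpain 2, a protease that calcium activates, was read at 379 to 412 CPM in whole astrocytes and 189 to 244 CPM in endfeet (-0.82, SE 0.21, adjusted p = 0.0082). Capns1, the small regulatory subunit, was read at 504 to 511 and at 184 to 423 CPM (-0.84, SE 0.23, adjusted p = 0.014). Neither kept its call with the length offset (-0.54, adjusted p = 0.13, and 0.11, adjusted p = 0.76). Capn2 also lost it without whole astrocyte library 1 (adjusted p = 0.070), and Capns1 without whole astrocyte library 1, 2 or 3 (adjusted p = 0.072, 0.057 and 0.059). Capn1, the catalytic subunit of calpain 1, had 4.33 ± 0.436 CPM in whole astrocytes and 14.3 ± 13.5 CPM in endfeet (1.83, SE 0.85, adjusted p = 0.11 with edgeR), and DESeq2 and limma called it higher (adjusted p = 0.028 and 0.048). Capn1, and Cacnb1 and Cacnb4 among the channel subunits that follow, are named after their values were seen.

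Of the 6 L-type calcium channel subunits, the 2 pore-forming ones were higher in endfeet and the 4 beta subunits were not past the threshold with edgeR. Cacna1c, the main L-type pore of smooth muscle, heart and neurons, was read at 5.47 to 5.95 CPM in whole astrocytes and 6.90 to 57.5 CPM in endfeet (2.77, SE 0.67, adjusted p = 0.0060). Cacna1d was read at 7.08 to 9.23 and at 18.1 to 68.5 CPM (2.34, SE 0.53, adjusted p = 0.0043). With the length offset the values were 2.07 (adjusted p = 0.030) and 1.39 (adjusted p = 0.051). Of the beta subunits, limma called Cacnb1 and Cacnb4 lower (adjusted p = 0.031 and 0.036), and with the length offset Cacnb4 was lower in edgeR too (-1.54, adjusted p = 0.0069), beside -0.59 (SE 0.38, adjusted p = 0.25) without it. The mural cell markers given above were higher in the same libraries, and their part was not tested.

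Among partners of S100 proteins, 1 of 8 tested was higher and 1 lower. Iqgap1, a scaffold of actin and small GTPases that binds S100b, was read at 12.5 to 14.2 CPM in whole astrocytes and 197 to 332 CPM in endfeet (4.37, SE 0.30, adjusted p = 3.67e-07). Cacybp, the calcyclin-binding protein, was read at 35.4 to 40.9 and at 9.67 to 23.8 CPM (-1.34, SE 0.46, adjusted p = 0.037). The call of Cacybp ended with the length offset (-0.64, adjusted p = 0.37), without any one whole astrocyte library (adjusted p = 0.13 to 0.15) and without endfeet library 2 (adjusted p = 0.078). Among receptors, Ager, which S100 proteins bind outside the cell, was not past the threshold (0 to 29 counts in endfeet, log2 fold change 0.97, SE 1.30, adjusted p = 0.60). The formyl peptide receptors Fpr1 and Fpr2 did not pass the filter. Fpr1 had 9, 1 and 0 counts in whole astrocytes and 31, 0, 3, 298, 0 and 1 in endfeet libraries 1 to 6. Fpr2 had 0 counts in all endfeet libraries.

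Within endfeet, libraries 4 to 6 were compared with libraries 1 to 3, as the numbers in the deposited files put them in different series. All whole astrocyte libraries carry numbers of the same series as endfeet libraries 4 to 6. Endfeet libraries 1 to 3 thus have no whole astrocyte library in their series. What the series stand for is not stated. None of 13483 genes was called by edgeR (0%), with 622 at an unadjusted p under 0.05, and DESeq2 called 38. No member was called by either tool, and none had an unadjusted p under 0.05. The lowest edgeR p of a member was 0.32 (adjusted p = 0.97), for S100a6, with 27.7 CPM in libraries 1 to 3 and 42.9 CPM in libraries 4 to 6 (log2 difference 0.70, SE 0.68). Ahnak had 2059 and 2011 CPM (0.00, SE 0.33) and S100b 137 and 188 CPM (0.47, SE 0.54). With 3 libraries on each side, the SE of the members ran from 0.33 for Ahnak to 1.59 for S100a11, so that only differences well above these could have been called.

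The genes whose level over the 6 endfeet libraries was most like that of Ahnak, by Pearson's r of log2(CPM + 1) among 9842 genes with a mean of at least 10 CPM, were Abcg1 (r = 0.996), Mink1 (0.993), Ints13 (0.991), Rtf1 (0.990) and Uba7 (0.989). For S100b they were Rsph9 (0.994), Lca5 (0.992), Trim9 (0.985), Etv1 (0.982) and Gm49387 (0.982). The 6 libraries share a protocol and differ in depth, and the genes were picked as the highest of 9842. Whether r values this high arise from the search alone was not tested, and the values are given as a description.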

How the data were processed

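RNA pulled down with tagged ribosomes was sequenced in 3 whole astrocyte TRAP and 6 endfeet TRAP libraries. The authors deposited counts for each Ensembl transcript, neither normalized nor pooled. They filtered reads by length and quality, aligned them to mm10 with Bowtie, kept uniquely aligned reads, and assigned these to Ensembl 75 features with HTSeq-count (HTSeq 0.5.3 and bcl2fastq 1.8.4 in the submitters' processing notes). Reads had been amplified from little RNA without molecular identifiers, so that counting limits cover counting error only.

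Of 75466 transcripts, 73164 matched GENCODE M21 (same build) and 2302 were left out. For each of the 22092 genes, the transcript of highest CPM over the sum of libraries was used. CPM and TPM were computed on these counts. Gene totals were 2319495 to 43521208. Groups were compared with edgeR 4.0.16 (TMM, filterByExpr, quasi-likelihood F test, R 4.3.3) over all 9 libraries. SE was derived from the log2 fold change and the F of its test. Shared 50-base windows were found with blastn 2.17.0 and at most 2 mismatches. Alternatives were DESeq2 1.42.0, limma 3.58.1 (voom with group weights), other filters and scalings, summed transcripts, a replicate block, endfeet libraries 4 to 6 alone, series as a covariate, each library left out, and, chosen after the data were seen, a lowess offset for transcript length. The fits were tested on simulated data. The members and gene lists were chosen with earlier results of these data known. Besides the 10 members, every tested annexin and S100 gene, called genes of the other lists, and the 5 genes most like Ahnak and S100b were named.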

Additional observations from a re-analysis of the deposited data

Results flagged for a closer look

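Among the 10 members and the 33 related genes tested, 2 single endfeet libraries stood apart from the other 5 by Dixon's test on log2(CPM + 1), where chance flags about 1 in 20 groups. Anxa2 was at 27.0 CPM in endfeet library 1, against 61.0 to 97.9 CPM in the other endfeet libraries. Asic1, an acid-sensing ion channel that is a partner of S100 proteins, was at 0 CPM in endfeet library 6, the library with the lowest total, against 10.1 to 31.8 CPM in the others.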

How the results depend on the processing

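The members' log2 differences kept their sign under every alternative that could give them, except Anxa5 with the length offset (0.0016). S100a10 and S100a11 had no value at 10 counts in every library. Leaving out each library in turn gave 4 to 9 related genes higher and 3 to 7 lower, and 1874 to 3380 and 1171 to 2642 over all genes, the lowest lower counts (3 and 1171) without whole astrocyte library 1 and the lowest higher count over all genes without library 2 (1959 and 1943 without libraries 1 and 3, and 1197 and 1217 lower without libraries 2 and 3). DESeq2 called 12 related genes higher and limma 11, of more genes tested in the case of DESeq2. Over all genes limma called 4493 lower and the length offset 1328, where the median log2 difference moved from 0.10 to -0.29 and 0.28, and the share of higher among all calls from 59.9% to 46.7% and 67.8%. S100a11 moved to 0.74 with endfeet libraries 4 to 6 alone and 0.82 with the series as a covariate. Among related genes, sign changes came with those 2 settings for Anxa4 (0.14 and 0.27) and Anxa8 (-0.50 and -0.38), with limma for Anxa8 (-0.39), and with the length offset for Anxa4 (0.50), Anxa11 (0.20), S100a4 (0.17) and Capns1 (0.11); leaving out a library turned Anxa4 (-0.57 to 0.15) and Anxa11 (-0.47 to 0.011). None of these was past the threshold before or after, except Capns1 before. The cause was not tested. Replicate numbers 1 to 3 of the groups did not pair the libraries (correlations of deviations -0.036, 0.017 and 0.038), and a replicate block over them called 6 related genes higher and 5 lower, beside 6 and 6 without it, and 2281 and 2091 over all genes. No member was called between endfeet series under any alternative. Libraries of 2319495 counts limit genes under 1.29 CPM.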
